A study of Mus musculus with 80 samples.

Results

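The 186 gene bodies described here are the autosomal rows of the expression table whose end lies 500 kb or more beyond their start, out of 24483 autosomal rows. They run from 501751 to 4434881 bp with a median of 713297 bp, and 45 of them span 1 Mb or more. The cells were wild-type mouse embryonic stem cells (ESCs) of the line E14, cultured with the cytokine LIF. RNA-seq compared cells kept in serum medium with cells switched to 2i for 6, 24 or 72 h, with 3 libraries in each group. The 2i medium is N2B27, which lacks serum, with the MEK inhibitor PD0325901 and the GSK3 inhibitor CHIR99021. Chromatin immunoprecipitation for dimethylated lysine 9 of histone H3 (H3K9me2) took serum cells as the reference for cells after 24 h of 2i and for cells in long-term 2i, whose duration the labels do not give, with 2 bound libraries and 1 input library for each condition. E14 is 1 cell line. A figure legend of the study calls its expression replicates biological, the labels do not say what separates them, and no source used here describes the replicates of H3K9me2, whose p-values measure a spread between libraries that may be technical.

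Genes of this size are rare in mammals, and most of their length is intron. Many encode adhesion molecules, channels and scaffold proteins of neurons, several lie at common fragile sites, and RNA polymerase needs many hours to cross one. H3K9me2 is written mainly by the enzyme pair G9a and GLP, lies over broad domains of silent chromatin, and is typically low over transcribed genes.

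Of the 186 genes, 178 also spanned 500 kb or more in RefSeq, 5 matched a RefSeq gene that is shorter (Sox2ot, Arfip1, Fgfr2, Zmat4 and Atp8a2) and 3 had no match. The unmatched row Gm20388, the longest of all, contains 80 other rows, and the Fgfr2 row contains 36. Another 101 rows contain no other row. The shortest genes inside the limit were Edil3 (501751 bp), Dock1 (502952 bp) and Car10 (503721 bp). Just outside it lay Dnm3 (495581 bp), Ank3 (493214 bp) and Abca13 (492317 bp). Symbols are those of the table, in which Odz4 is the older name of Tenm4.

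Sequence upstream of the start was looked up in RefSeq (GRCm38.p6) for the strand of each gene. For 119 of the 186 genes a listed start lay within 2 kb of the start in the table. The 250 bases before it held a median of 15 CpG dinucleotides (the letters CG, which read the same on both strands), against 6 over all 31396 autosomal starts in the reference. With 10 or more CpG as the limit, the share was 68.9% of the long genes and 38.3% of all starts. It was 76.5% among the 17 of these genes that passed the expression filter below and 67.6% among the 102 that did not. The long genes and all starts are unlike sets. Each long gene enters once, and 181 of the 186 are protein coding in RefSeq. The 31396 starts are all those listed, more than the 24483 autosomal rows of the expression table. No matched set was counted, so the gap cannot be read as a property of long genes. The 5 sequences that follow, written 5′ to 3′ with CpG in capitals, are shown because their genes carry the results: Enox1 and Foxp1 fell in expression, Dock1 rose, and Clstn2 and Ptprt are little expressed with high H3K9me2. They lie at chr14:77156513-77156762 (Enox1, plus strand), chr6:99520994-99521243 (Foxp1, minus strand), chr7:134670437-134670686 (Dock1, plus strand), chr9:98033168-98033417 (Clstn2, minus strand) and chr2:162661148-162661397 (Ptprt, minus strand).
Enox1: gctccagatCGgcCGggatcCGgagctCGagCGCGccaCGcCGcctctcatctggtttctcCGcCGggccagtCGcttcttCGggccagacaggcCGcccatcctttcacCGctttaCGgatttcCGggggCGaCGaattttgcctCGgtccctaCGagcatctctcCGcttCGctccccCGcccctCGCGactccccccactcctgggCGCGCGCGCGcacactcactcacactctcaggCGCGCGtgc
Foxp1: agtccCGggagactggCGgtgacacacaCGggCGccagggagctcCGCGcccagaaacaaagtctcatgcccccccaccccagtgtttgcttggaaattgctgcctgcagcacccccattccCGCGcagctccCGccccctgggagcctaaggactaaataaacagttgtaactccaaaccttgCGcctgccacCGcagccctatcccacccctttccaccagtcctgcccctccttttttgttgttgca
Dock1: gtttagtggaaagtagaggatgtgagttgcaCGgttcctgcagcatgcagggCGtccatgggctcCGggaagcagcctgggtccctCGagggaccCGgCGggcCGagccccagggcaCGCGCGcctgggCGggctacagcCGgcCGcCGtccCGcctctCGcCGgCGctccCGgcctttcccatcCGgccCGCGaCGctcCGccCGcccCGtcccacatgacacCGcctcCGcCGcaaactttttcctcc
Clstn2: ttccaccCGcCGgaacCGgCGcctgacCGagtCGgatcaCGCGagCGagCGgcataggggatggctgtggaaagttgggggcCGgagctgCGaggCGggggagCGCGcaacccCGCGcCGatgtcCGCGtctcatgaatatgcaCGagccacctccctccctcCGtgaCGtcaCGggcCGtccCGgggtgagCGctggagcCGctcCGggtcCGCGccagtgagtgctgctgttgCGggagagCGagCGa
Ptprt: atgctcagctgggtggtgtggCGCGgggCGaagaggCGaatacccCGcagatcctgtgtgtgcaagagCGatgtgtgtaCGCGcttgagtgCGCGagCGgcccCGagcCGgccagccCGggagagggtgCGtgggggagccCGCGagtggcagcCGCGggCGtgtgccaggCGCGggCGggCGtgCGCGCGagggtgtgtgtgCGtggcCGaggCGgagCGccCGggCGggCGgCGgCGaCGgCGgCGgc
The little expressed genes Clstn2 and Ptprt hold 34 and 39 CpG in this stretch, beside 33 in the transcribed Enox1 and 29 in Dock1. These 2 are not typical of genes with high H3K9me2. Of others among the 6 highest in serum, Sorcs3 holds 6, Esrrg 9, L3mbtl4 12 and 1700112E06Rik 15. The median was 14.5 in the 102 genes that did not pass the filter and 19 in the 17 that did. Foxp1 holds 11, and its RefSeq start lies 1728 bases from that of the table.

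Expression values are log2 reads per exonic length and sequencing depth, set by the authors to a common 75th percentile. The pluripotency factors Pou5f1 (7.73 to 9.01) and Nanog (6.62 to 8.63) were high in all 12 libraries. Because a row of the table counts exonic reads, its value does not show whether polymerases reached the end of the gene. Of the long genes, 27 (14.5%) had a mean of 0 or more over the 12 libraries and were tested, against 44.9% of all autosomal rows and 36.3% of those of 200 to 500 kb. Their values rest on 12 to 4896 reads per library. Of the 27, Frmd4a, Atrnl1 and Wwox reached this limit only through their values at 72 h, and Enox1 only through serum, with a mean under 0 over the other 9 libraries. The other 159 had a median of 37 reads in all 12 libraries together, and 18 had no read in any.

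In serum the highest values among the long genes belonged to Schip1 (4.14 ± 0.16, SD, n = 3), Ptprk (3.94 ± 0.09), Enox1 (3.69 ± 0.14), Etl4 (3.61 ± 0.12) and Gm20388 (3.60 ± 0.06). The order of the last 3 is not resolved beyond their spread. None of the 19 channel and transmitter receptor genes was among the 27 tested. The list of adhesion and axon guidance genes had 3 tested of 50, transcription factors and RNA-binding proteins 3 of 15, signalling, scaffold and vesicle proteins 12 of 63, and genes at common fragile sites 4 of 30.

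After 6 h of 2i, 3 of the 27 tested genes had changed, 1 higher and 2 lower (limma, Benjamini-Hochberg adjusted p under 0.05). Over all 11376 genes tested 14.2% were called, 8.24% higher and 6.01% lower. Without the 4 genes that passed the filter through 1 group only, 1 was higher and 1 lower of 23. Enox1, which encodes a cell-surface oxidase, had the largest fall, and it was tested only because of serum. It read 3.79, 3.75 and 3.54 in serum and 1.47, 1.46 and 1.20 at 6 h, and fell by 2.31 on the log2 scale (SE 0.18, adjusted p = 6.1e-06). The groups did not overlap. Foxp1, a forkhead transcription factor, fell by 0.83 (SE 0.22, adjusted p = 0.027), from 2.87, 2.84 and 3.06 to 2.06, 2.08 and 2.13. Gm20388 rose by 0.42 (SE 0.11, adjusted p = 0.025). The calls of Foxp1 and Gm20388 were lost whenever any 1 of the 6 libraries was left out, with adjusted p between 0.052 and 0.101. That of Enox1 was kept in each.

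At 24 h, 6 long genes were higher and 11 lower than in serum, against 33.6% higher and 29.1% lower of all genes tested (62.7% in either direction). Without the 4 genes that passed the filter through 1 group only, among them Enox1 and Atrnl1, 5 were higher and 10 lower of 23. The median change was -0.49 for the 27 long genes and 0.10 for all. All 3 tested adhesion genes fell. Odz4, a teneurin, fell by 2.53 (SE 0.30, adjusted p = 3.6e-05), and the receptor tyrosine phosphatases Ptprg and Ptprk fell by 1.67 (SE 0.17, adjusted p = 1.1e-05) and 1.44 (SE 0.18, adjusted p = 5.7e-05). Enox1 continued to -0.64, -0.63 and -0.95, and its 3 libraries again lay far below serum. Lpp, a LIM-domain protein of focal adhesions, went from 2.25, 2.31 and 2.43 to -1.21, -1.10 and -0.07, and fell by 3.12 (SE 0.29, adjusted p = 6.2e-06). Foxp1 fell by 2.20, Etl4 by 1.61 and Elmo1, an activator of the GTPase Rac together with Dock1, by 1.34. The rises were smaller: Gmds, which makes GDP-fucose precursors, rose by 0.88 (SE 0.22, adjusted p = 0.0045), Smyd3, a lysine methyltransferase, by 0.57 (SE 0.10, adjusted p = 0.00054), and Schip1, Atrnl1 and Gm20388 by 0.59, 0.51 and 0.65. The call of Schip1 was lost without serum library 2 or 3 or 24 h library 1 or 2 (adjusted p 0.0662 to 0.12). That of the 1 rise not named here was lost without any 1 of the 6 libraries (adjusted p 0.0512 to 0.119).

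The 3 libraries of 24 h were not alike for long genes. In libraries 1 and 2 the deviation of a gene from its own mean fell with gene span over all 11376 genes (Spearman's rho -0.446 and -0.448, across genes), and the 27 long genes lay at a median of -0.84 and -0.58. In library 3 the rho was -0.059 and the median -0.08. With library 3 as the only one of 24 h, 3 long genes were higher and 9 lower, beside 18.2% higher and 20.1% lower of all genes (38.4% in either direction), and Schip1, Gmds and Atrnl1 were no longer called. In that fit the lone library is assumed to vary like those of the other groups. With the trend on span removed from each library, 11 were higher and 10 lower and the median was -0.08, beside 31.1% higher and 31.4% lower of all genes (62.5% in either direction). The alternatives thus differ in the split between rises and falls. Enox1, Lpp, Odz4, Foxp1, Ptprg, Ptprk, Etl4 and Elmo1 were called lower in both fits.

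By 72 h, 9 long genes were higher and 9 lower than in serum, with 50.5% of all genes tested called (24.5% higher, 26% lower). The median change was 0.06 for the long genes and -0.01 for all. Of the 9 rises, 3 (Frmd4a, Atrnl1 and Wwox) were tested only because of the values at 72 h, and of the 9 falls Enox1 only because of serum. Without these 4 genes, 6 were higher and 8 lower of 23. The 72 h libraries also differed with span, with a rho of 0.085, -0.286 and 0.274 in libraries 1, 2 and 3. The 27 long genes lay there at a median of 0.16, -0.17 and 0.27. With the trend on span removed, 8 of the 27 were higher and 11 lower, beside 26.8% higher and 27.6% lower of all genes. Enox1 reached -2.16, -2.43 and -1.82, and fell by 5.83 on the log2 scale (SE 0.18, adjusted p = 1.3e-09), or 56.9-fold. This rested on 733 to 927 reads in serum and 12 to 19 reads at 72 h. Lpp fell by 2.78 from serum (SE 0.29, adjusted p = 1.3e-05) and Foxp1 fell by 2.74 (SE 0.22, adjusted p = 2.0e-06), and Foxp1 read 0.40, -0.30 and 0.44. Odz4 fell by 1.77, Elmo1 by 1.10, Ptprk by 1.02, Fgfr2, a receptor for fibroblast growth factors, by 0.96, Etl4 by 0.86 and Ptprg by 0.66.

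Among the rises at 72 h, Frmd4a, a FERM-domain scaffold, went up by 1.28 (SE 0.25, adjusted p = 0.0014), Atrnl1 by 1.07 (SE 0.15, adjusted p = 0.000102) and Smyd3 by 0.99 (SE 0.10, adjusted p = 1.0e-05). Smyd3 read 0.69, 0.73 and 0.74 in serum, 1.30, 1.27 and 1.30 at 24 h and 1.80, 1.65 and 1.70 at 72 h, and the groups did not overlap. Dock1, the partner of Elmo1, read 3.04, 3.01 and 3.21 in serum and 4.13, 3.66 and 4.11 at 72 h, a rise by 0.88 (SE 0.20, adjusted p = 0.0033). Elmo1 and Dock1 thus moved in opposite directions. Wwox, an oxidoreductase gene at a fragile site, rose by 0.81 (SE 0.14, adjusted p = 0.00075), as did Exoc4, an exocyst subunit, by 0.44. Both belong to the fragile site list, in which 3 of 4 tested were called higher at 72 h and none lower, beside 24.5% of all genes called higher. Of the 3, Wwox was tested only because of its 72 h values, and the other 2 calls were each lost without 1 library. Schip1 and Gm20388 also rose, by 0.58 and 1.27. Leaving out 1 library ended the call of Schip1 (serum 2 or 3, or 72 h 1 or 2, adjusted p 0.0849 to 0.134), of Etl4 (any but 72 h library 3, 0.0504 to 0.107) and of Exoc4 (serum 1 or 2, or 72 h 1 or 3, 0.0546 to 0.0803). Of the 12 tested signalling, scaffold and vesicle genes 5 were higher and 2 lower, and all 3 tested adhesion genes were lower.

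From 24 h to 72 h, 8 long genes rose and 2 fell, with 29.8% of all genes tested called (15.2% higher, 14.6% lower). Of the 8 rises, those of Frmd4a, Wwox and Atrnl1 were tested only because of the values at 72 h. With the span trend removed, 4 rose and 5 fell, beside 30.1% of all genes called (16.6% higher, 13.4% lower). With a replicate block, 16 rose and 3 fell, beside 20.8% higher and 25.7% lower of all genes.

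**Figure D1:**
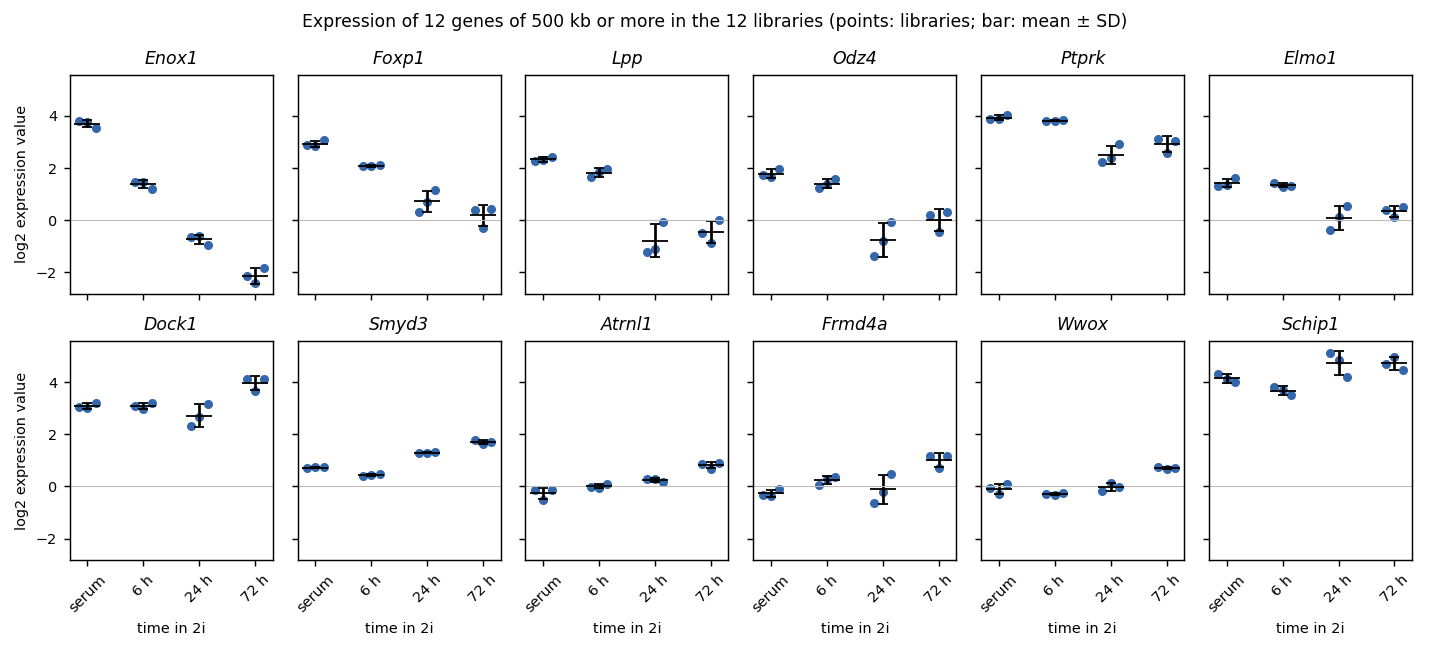
Log2 expression value (vertical axis) of 12 genes of 500 kb or more in serum and at 6, 24 and 72 h of 2i (horizontal axis). Points are the 3 libraries of each group and bars the mean ± SD. Enox1 steps down at each time from 3.69 in serum to -2.14 at 72 h, and Smyd3 rises from 0.44 at 6 h to 1.71 at 72 h. The 24 h libraries of Lpp, Odz4, Dock1 and Frmd4a are widely spread.

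Below the filter, values are given from the fit without a filter, in which 168 long genes had a read in some library. The genes named in this paragraph were chosen after their values were seen. Of the 141 long genes that only this fit holds, 20 were higher and 26 lower at 72 h, against 20.4% higher and 20.7% lower over all 19814 genes in the fit (41.1% in either direction). At 24 h, 7 of the 141 were higher and 28 lower, against 25.6% higher and 21.8% lower over all genes in the fit. Fhit, a fragile site gene, had 1 to 2 reads per library in serum and 11 to 38 at 72 h, and its log2 value rose by 3.84 (SE 0.66, adjusted p = 0.0007). Immp2l, another fragile site gene that encodes a mitochondrial peptidase subunit, had 6 to 12 reads in serum and 35 to 76 at 72 h, with a rise by 2.57 (SE 0.49, adjusted p = 0.0015). Grid1, of the delta glutamate receptors, rose by 3.07 and the sialyltransferase gene St6galnac3 by 2.18. In the other direction Dab1, a fragile site gene that encodes an adaptor of reelin signalling, fell by 3.28 (SE 0.20, adjusted p = 3.5e-07), from 0.94, 0.71 and 0.87 to -2.65, -2.34 and -2.34, and the calcium channel gene Ryr3 fell by 3.30. Of the 24 fragile site genes that only this fit holds, 3 were higher and 4 lower.

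Genes for elongation factors and topoisomerases, which long genes are known to need, are not long themselves and were followed as a separate list of 33. Of 32 tested, 1 was higher and 23 lower at 24 h, beside 33.6% higher and 29.1% lower over all genes. At 72 h 2 were higher and 15 lower, beside 24.5% higher and 26% lower. The rises were those of Ell3 (1.455 at 24 h and 0.728 at 72 h) and Aff1 (1.178 at 72 h). The list was not counted with 24 h library 3 alone or with the span trend removed. Its 24 h counts thus include the 2 libraries whose values fall with span. Top1, the enzyme that relieves supercoils ahead of the polymerase, was lower by 0.79 (SE 0.14, adjusted p = 0.00062) at 24 h and by 0.56 (SE 0.14, adjusted p = 0.0066) at 72 h. Cdk12, a kinase of the polymerase tail with the largest fall of the list at 24 h, was lower by 2.50 (SE 0.28, adjusted p = 2.5e-05) and 1.26 (SE 0.28, adjusted p = 0.0031). The part of these genes in the values of the long genes was not tested.

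For H3K9me2 the authors deposited reads per 2-kb bin, and 70364 bins (7.06% of the autosomal bins) lie fully inside the long bodies, a median of 314.5 per body. Skint5 has only 3 and was left out, which leaves 185 bodies. The libraries hold 14168502 to 23364367 reads in autosomal bins. The level of a body is its share of bound reads over its share of input reads, so it is relative to the rest of the autosomes, and a change in the total amount of the mark cannot be seen.

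In serum, the bins of the long genes together held 1.26 and 1.28 times their input share in the 2 bound libraries. Bins of all other genes held 0.799 and 0.774, and bins outside any gene 1.13 and 1.15. The level rose with gene span. Among little expressed genes (mean log2 value under 0) the median body was at 0.766 of input under 20 kb, 1.28 at 200 to 500 kb and 1.35 at 500 kb or more (158 bodies). Among expressed genes it was at 0.220 under 20 kb, 0.861 at 200 to 500 kb and 1.01 at 500 kb or more (27 bodies). Differences between these size classes are descriptions and were not tested.

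The highest levels in serum were those of Clstn2, a calsyntenin, with 1.72 and 1.69 times input, Sorcs3, a sorting receptor of neurons, with 1.70 and 1.68, and the nuclear receptor gene Esrrg with 1.66 and 1.61. Csmd2, 1700112E06Rik and L3mbtl4 followed at log2 0.70, 0.70 and 0.69, within the spread of the libraries of one another. In Clstn2 95.2% of the bins were above input. At the other end stood Gm20388 with 0.574 and 0.488, then Rabgap1l with 0.734 and 0.765, Vps13b with 0.752 and 0.779, Lrba with 0.765 and 0.806, Exoc4 with 0.792 and 0.803 and Etl4 with 0.796 and 0.811. All but Rabgap1l of these were among the expressed 27, and Rabgap1l, at a mean of -0.03, lay just below that limit. Over the 185 bodies the serum expression value and the serum level had a Pearson's r of -0.62 and a Spearman's rho of -0.50 (-0.61 and -0.49 without Gm20388), across genes that share the same libraries.

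**Figure D2:**
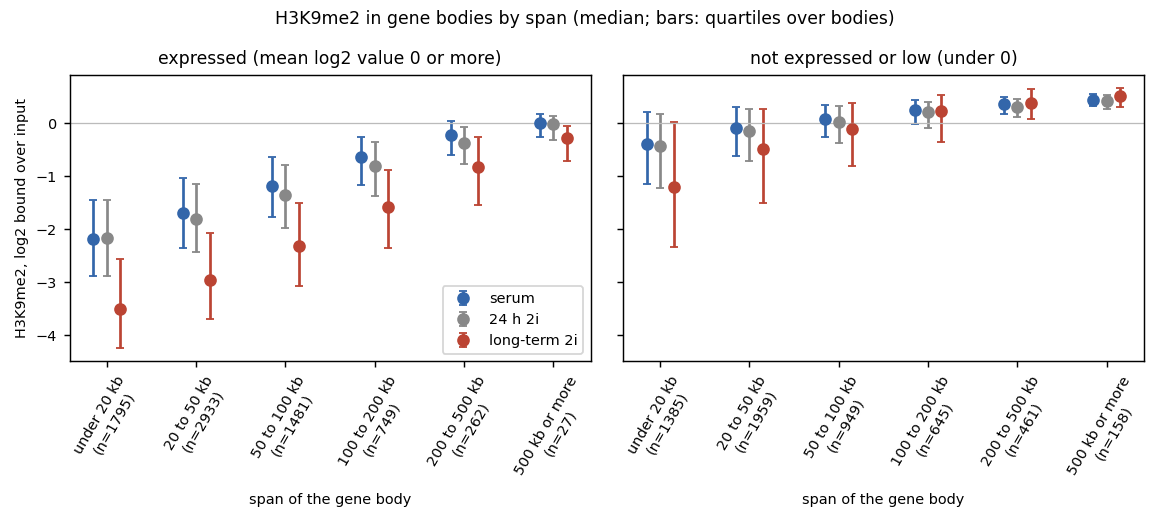
Median H3K9me2 of gene bodies (log2 bound over input, vertical axis) by span, for expressed genes (left) and genes with a mean log2 value under 0 (right), with serum in blue, 24 h in grey and long-term culture in 2i in red. Bars are quartiles over bodies. The level rises with span in both panels, and long-term 2i lies below serum in every class of expressed genes and above serum in the right panel at 200 to 500 kb and at 500 kb or more.

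The mark was not even along the bodies. Among the 153 little expressed genes that also span 500 kb in RefSeq, the first twentieth of the body held 1.23 times input in serum, the following parts 1.33 to 1.38, and the last 1.29. The flanking 100 kb held 1.04 in the 10 kb nearest the start and 1.12 to 1.26 elsewhere. Among the 24 expressed genes of this kind the first part held 0.766 and later ones up to 1.11. The 2-kb bin at the start was the lowest point in both classes, at 0.436 in the little expressed and 0.168 in the expressed genes, against 1.21 and 0.750 at 10 kb inside the gene.

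Of the 20 bodies highest in serum, 15 had a start bin under 0.5 of input. This share was not counted over all long bodies, in which low start bins were common. Over long genes with a RefSeq start, the median start bin was at 0.163 of input in the 81 with 10 or more upstream CpG. It was at 0.521 in the 37 with fewer. In 3 it lay above input on the mean of the libraries, namely 1700112E06Rik (mean 1.04), Sema6d (mean 1.28) and Dab1 (mean 1.04), the last 2 named after their values were seen. Among the genes whose sequences are printed above, in Clstn2 it held 1 and 0 bound reads in serum beside 15 input reads, and in Ptprt 0 and 1 beside 18. In Dock1 it held 1 and 0 beside 23, and in Enox1 3 and 3 beside 12. Single bins hold so few reads that these genes cannot be ranked by them. Over little expressed genes, the start bin lay at a median of 0.181 of input in the 68 whose upstream stretch held 10 or more CpG and at 0.551 in the 33 with fewer. Both are descriptions, and the part of base composition in the start bins was not tested.

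**Figure D3:**
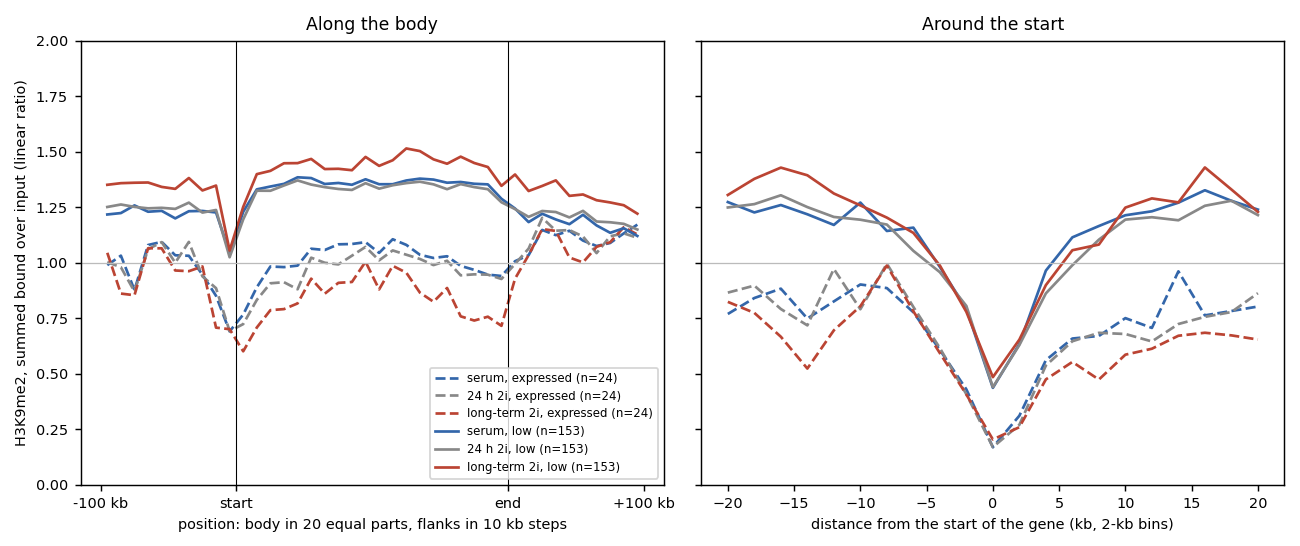
H3K9me2 as summed bound over input share (linear ratio, vertical axis) along the body and 100 kb flanks (left) and around the start in 2-kb bins (right), for genes that also span 500 kb in RefSeq. Solid lines are 153 little expressed genes, dashed lines 24 expressed genes, coloured by condition. In the left panel, solid lines stay above 1 within the body and rise in long-term 2i, in the flanks as well as the body. Dashed lines fall within the body in long-term 2i. All lines dip at the start. In the right panel the solid lines fall below 1 there, and long-term 2i lies below serum at 4, 6 and 8 kb inside the gene.

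At 24 h of 2i, no body of the 12804 tested was called at an adjusted p under 0.05 by limma, so 0 of the 185 long bodies were (0% of all called). At an unadjusted p under 0.05 there were 13 long bodies and 2651 in all. The median log2 change was -0.03 for the long bodies and -0.08 for all. Relative to the median gene body of each library, 45 bodies (0.351%) were called and no long one. The result depends on how the spread is pooled. With only bodies of 25 or more bins in the fit, 2 long bodies were higher and 9 lower (of all 4399 in this fit, 18.8% were called, 1.86% higher and 17% lower). With a variance prior that follows the total reads of a body, 2 were higher and 14 lower (7.5% of all 12804 called, 1.06% higher and 6.44% lower). In both, the 2 higher were Enox1 and Sntg1, a syntrophin, and the strongest fall was that of Lrba. Enox1 went from 0.976 and 0.977 times input in serum to 1.20 and 1.16 at 24 h, and its libraries did not overlap (log2 change 0.27, SE 0.07, adjusted p = 0.112 with all bodies).

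In long-term 2i, long bodies gained as well as lost the mark relative to the autosomes. The summed bins of the long genes went from 1.26 and 1.28 times input in serum to 1.30 and 1.32. Bins outside any gene also rose, from 1.13 and 1.15 to 1.22 and 1.23, so a gain was not particular to long bodies. Bins of all other genes fell from 0.799 and 0.774 to 0.670 and 0.653. These sums were not tested. Of all 12804 bodies 75.6% were called, 67.4% lower and 8.16% higher, with a median log2 change of -0.78. Of the 185 long bodies 30 were lower and 54 higher, with a median of 0.07. Without serum library 1 the median was 0.05 for the long bodies and -0.73 for all, and fewer of both were called. The remaining serum library is then assumed to vary like the others. The direction rests on the scaling to all autosomal reads. Relative to the median gene body of each library, 181 of the 185 were called higher and none lower, with 57.4% of all called (39.9% higher, 17.5% lower). The medians are then 1.01 for the long bodies and 0.17 for all. This scaling shifts every body of a library alike, so the gap between the 2 medians is the same in both scalings by construction. The bodies that were lower in the first scaling were not called lower in the second. With the median over bins as the level of a body, 32 were higher and 30 lower, beside 4.87% higher and 61.8% lower of all. With the variance prior on total reads 86 were higher and 43 lower, beside 8.58% higher and 68.3% lower of all.

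Expressed and little expressed long genes differed in these counts. Of the 27 expressed bodies 19 (70.4%) were lower and 1 (3.70%) higher, with a median of -0.27. Of the 158 others 11 (6.96%) were lower and 53 (33.5%) higher, with a median of 0.10. Over all bodies 67.4% were lower and 8.16% higher. Of 262 expressed bodies of 200 to 500 kb, 75.6% were lower and 5.34% higher, with a median of -0.58. Of 461 little expressed ones of that span, 24.1% were lower and 33.6% higher, with a median of 0.05. Under 20 kb the medians were -1.17 in expressed and -0.65 in little expressed genes. The difference between the 2 kinds of long gene was not tested. The list counts stand beside the same shares of all bodies (8.16% higher, 67.4% lower). By list, 13 adhesion genes were higher and 5 lower of 50, and 6 and 3 of 19 channel and receptor genes. Of 15 transcription factor and RNA-binding genes 3 were higher and 3 lower. Of 63 signalling, scaffold and vesicle genes 18 were higher and 13 lower, and of 30 fragile site genes 6 and 2. The list medians lay between 0.04 and 0.08.

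The largest falls were those of Gm20388 (log2 change -1.03), Dock1 (-0.88), Pard3 (-0.80), St6galnac3 (-0.80), Odz4 (-0.73) and Smyd3 (-0.70). Dock1 held 1.24 and 1.16 times input in serum and 0.686 and 0.623 in long-term 2i (SE of the change 0.08, adjusted p = 0.00012), and the share of its bins above input went from 65.1% to 20.3%. Smyd3 went from 0.935 and 0.885 to 0.580 and 0.538 (adjusted p = 0.00033), St6galnac3 from 1.06 and 1.01 to 0.612 and 0.580 (adjusted p = 0.00015), and the polarity gene Pard3 from 0.929 and 0.877 to 0.526 and 0.510 (adjusted p = 0.00016). In none of these did the libraries of the 2 conditions overlap. Relative to the median body, Dock1, Pard3, St6galnac3, Odz4 and Smyd3 were higher by 0.07, 0.14, 0.14, 0.21 and 0.24 instead, of which Odz4 and Smyd3 were called.

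The largest rises were those of Ptprt, another receptor phosphatase (log2 change 0.46, SE 0.05, adjusted p = 0.000215), Sntg1 (0.43, SE 0.07, adjusted p = 0.0016), 1700007B14Rik (0.38), L3mbtl4 (0.36), Enox1 (0.36, SE 0.07, adjusted p = 0.0025) and AC132131.1 (0.33). Ptprt went from 1.59 and 1.58 to 2.19 and 2.16 times input, and Sntg1 from 0.894 and 0.943 to 1.20 and 1.28, from below its input share to above it. Clstn2, the highest body in serum, was at 1.89 and 1.81 (log2 change 0.12, adjusted p = 0.053) and was not called.

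**Figure D4:**
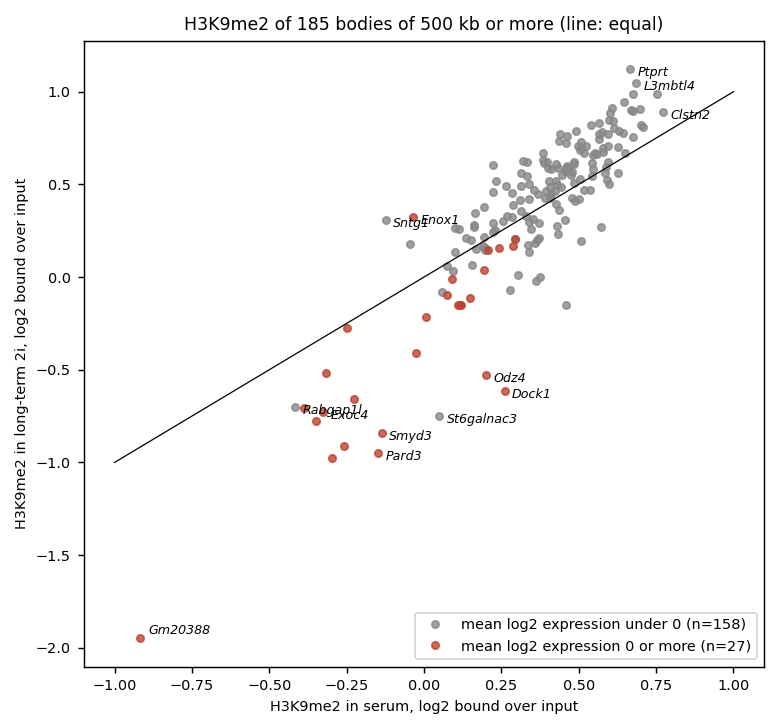
H3K9me2 of 185 bodies of 500 kb or more in serum (horizontal axis) and long-term 2i (vertical axis), both as log2 bound over input, with the line of equal values. Each point is 1 body (mean of 2 libraries), red for the 27 expressed genes and grey for the 158 others. The red points lie below the line except Enox1, and 117 of the 158 grey points lie above it.

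Set beside expression, Enox1 was the 1 gene of the 27 whose mark was higher than in serum, at 1.31 and 1.20 times input in long-term 2i, and it had the largest fall in RNA of the 27. It counts as expressed through serum alone, and at 24 h and 72 h its mean lay under 0. Of the 9 genes that rose in RNA at 72 h, 5 were lower in long-term 2i, among them Dock1, Exoc4, Gm20388 and Smyd3, and none higher, beside 19 lower of the 27 and 67.4% lower of all bodies. Of the 9 genes that fell in RNA, 7 were lower in H3K9me2, among them Odz4, Foxp1 (1.03 and 0.980 to 0.896 and 0.831) and Lpp, and so were 7 of the 9 whose RNA was not called. Over the 27 genes the 72 h change in RNA and the long-term change in H3K9me2 had a Pearson's r of -0.42 and a Spearman's rho of -0.13. Enox1 is the extreme point of both changes (-5.83 and 0.36), and the r was not computed without it. Among the 141 genes below the filter that had a read, those lower in RNA at 72 h had 9 bodies higher in H3K9me2 and none lower of 26, and those higher in RNA had 6 higher and 4 lower of 20 (Kalrn, Ptprn2, St6galnac3 and Thsd4, named after their values were seen). The 95 without a call in RNA had 33 higher and 7 lower, a share of rises like that of the genes that fell in RNA. RNA was measured up to 72 h and the mark after 24 h and long-term culture, so the 2 changes are not of the same cells or time.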

How the data were processed

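RNA-seq (12 libraries, TruSeq, 50 bp single reads; the kit does not mark strand) and H3K9me2 ChIP-seq (6 bound, 3 input) were analysed, and the bisulfite files were not used here. The submitters' processing notes name Trim Galore 0.3.5, TopHat2 2.0.11, Bowtie2 and Bismark 0.12.3 without roles. Coordinates match GRCm38. The authors deposited log2 expression values per gene and for H3K9me2 log2 reads in 2-kb bins, brought to the depth of the deepest library, with 0.9 reads entered where there were none. The bin table holds only bins with 6 or more reads in every input. Undoing the scaling gave whole reads for every ChIP bin (tolerance 0.01%), and reads of the 186 long genes were recovered from the steps of their values (tolerance 0.002 reads). Total reads per RNA library are not known. Reads of overlapping genes cannot be told apart.

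Expression was tested with limma 3.58.1 (R 4.3.3, variance trend on the mean) in one fit of 12 libraries over 11376 genes with a mean of 0 or more. H3K9me2 was tested with limma on log2 bound over input of autosomal bodies with 5 or more bins, with the prior following bound reads per bin. The single input per condition is treated as free of error. Fits were tested on simulated data. The members and gene lists were chosen with earlier results of these data known. Named genes are, at each time, up to 8 largest rises and falls past adjusted p 0.05, the 5 highest in serum, the 6 highest and lowest in serum H3K9me2, the 6 largest rises and falls in long-term 2i and the 3 genes on either side of the span limit. One gene that this rule names is not reported here, though the counts include it. Among the alternatives tried were other filters, scalings, inputs and sets of bins, a replicate block and leaving out each library.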

Additional observations from a re-analysis of the deposited data

Results flagged for a closer look

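The change from serum differed between 24 h and 72 h in 10 of the 27 tested long genes, by the limma test of the step from 24 h to 72 h (adjusted p under 0.05), beside 29.8% of all 11376 genes. Among the rises, Frmd4a, Wwox and Atrnl1 passed the filter on low values only through their 72 h values. The step was 1.25 on the log2 scale for Dock1, 1.12 for Frmd4a, 1.01 for Ptprg, 0.883 for Lrba, 0.73 for Wwox, 0.612 for Gm20388, 0.565 for Atrnl1, 0.423 for Smyd3, -0.669 for Gmds and -1.4 for Enox1. In Dock1 and Lrba the change from serum also had opposite signs at the 2 times. Dock1 was at -0.37 at 24 h (SE 0.20, adjusted p = 0.119, limma) and rose by 0.88 by 72 h, and Lrba was at -0.57 and 0.31, neither of which was called. In Dock1, 24 h libraries 1 and 2, whose values fall with gene span, read 2.32 and 2.66, and library 3, at 3.18, lay within the serum values (3.01 to 3.21).

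With the span trend removed, the steps of Dock1 (0.77), Frmd4a (0.62), Ptprg (0.50), Lrba (0.39), Gmds (-1.15) and Enox1 (-1.89) were called. Those of Wwox (0.20), Atrnl1 (0.08), Gm20388 (-0.05) and Smyd3 (-0.07) were not.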

How the results depend on the processing

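At 6 h, 3 long genes were called, beside 1621 of all 11376. Without the filter on low values this became 11 of 168, beside 2315 of all 19814. With the span trend removed 0 were higher and 5 lower, beside 1940 of all called, so Gm20388 was not called higher. With only the 6 libraries compared 9 were called, beside 3239 of all. With a minimum log2 change of 1 there was 1, for which no share over all genes was computed. Leaving out 1 library gave 1 call each time, beside 1042 to 1218 of all genes. At 24 h, 17 (7131 of all) became 51 without the filter (9386 of all 19814). It became 10 of 15 tested with a mean of 1 or more (6189 of all 9773). A minimum change of 1 left 10, and leaving out 1 library gave 15 to 21, beside 6088 to 8156 of all 11376. At 72 h, 18 (5743 of all) became 64 (8143 of all), 10 (4876 of all) and 9 under the same 3 alternatives. Without 1 library 14 to 18 were called, beside 4845 to 5784 of all 11376. The larger counts without the filter come from the larger number of genes tested. For H3K9me2 at 24 h, 0 calls became 11 with bodies of 25 or more bins and 16 with a prior on total reads, an alternative chosen after seeing the data, and stayed at 0 without each library. In long-term 2i, 84 (9675 of all 12804 bodies) became 181 relative to the median body (7354 of all) and 129 with the prior on total reads (9843 of all). Without serum library 1 or 2 the median change of the long bodies was 0.05 and 0.09. Without long-term 2i library 1 or 2 it was 0.07 and 0.06. Fewer long bodies, and fewer of all bodies, were called in each. With bound reads alone there were 80 higher and 28 lower, beside 8.86% higher and 69.3% lower of all bodies. The 3 inputs summed give the same fit, since that sum is 1 value per body and cancels in every comparison. With the median over bins there were 32 higher and 30 lower, beside 4.87% higher and 61.8% lower of all.

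Relative to the median body, the long-term change of Dock1 was 0.0671, of Odz4 0.21, of Pard3 0.14, of Smyd3 0.24 and of St6galnac3 0.14, opposite in sign to the values scaled to all autosomal reads. The median level in log2 was 0.397 in serum, 0.363 at 24 h and 0.463 in long-term 2i. In long-term 2i it was 0.421 as the median over bins and 0.492 with the 3 inputs summed. At 24 h it was 0.359 with every overlapping bin, 0.349 as the median over bins and 0.37 without bins in other rows. The causes of these shifts were not tested.

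With a replicate block, the calls among long genes were 4 (6 h), 20 (24 h) and 19 (72 h), beside 19.6%, 70.8% and 59.7% of all genes. For H3K9me2 they were 0 of 185 at 24 h, beside 0 of all 12804 bodies. In long-term 2i they were 91 of 185, beside 9806 of all 12804. From 24 h to 72 h the 10 calls (8 higher, 2 lower) became 19 (16 higher, 3 lower) with the block, while the share of all genes called went from 29.8% to 46.5% (20.8% higher, 25.7% lower). No call at 6, 24 or 72 h was lost with the block, and Schip1 at 6 h, Cdkal1, Lrba and Magi1 at 24 h and Vps13b at 72 h were added. Same-numbered RNA libraries deviated together (correlation above 0) in 17 of 18 pairs, by over 0.1 in 15, which include the 3 pairs of serum with 6 h and of serum with 24 h. The lowest was -0.32 (replicate 1 of 24 h and 72 h), and not every library correlated best with its own number. Same-numbered bound libraries correlated at -0.01 to 0.07. Restricting the counts to genes of 500 kb in RefSeq gave, of 24 tested, 2 calls at 6 h, 15 after 24 h and 16 after 72 h. The shares of all genes called were 14.2%, 62.7% and 50.5%. For the mark in long-term 2i it gave 52 higher and 26 lower of 177, beside 8.16% higher and 67.4% lower of all bodies. Over the 48 single results followed, 646 alternative values gave 5 reversals of sign, 44 lost calls and 4 new ones. All 5 reversals come from centring on the median body, which shifts every body of a library alike. Depth limits many of the 159 genes below the filter, of which 47 have 12 reads or fewer in all, while the highest has 2809.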
